A study of Mus musculus with 30 samples.

Results

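The replication-dependent histone genes encode the core histones H2A, H2B, H3 and H4 and the linker histone H1 that package newly copied DNA. They were taken as the genes annotated as protein coding under the older mouse symbols that begin with Hist1h, Hist2h, Hist3h or Hist4h. This rule found 67 of the 54532 genes in the count table, of which 6 encode H1, 18 encode H2A, 18 encode H2B, 12 encode H3 and 13 encode H4. The Hist1 cluster on chromosome 13 held 54 of them, the Hist2 cluster on chromosome 3 held 10, Hist3 on chromosome 11 held 2 and Hist4 on chromosome 6 held 1. A further 3 pseudogenes carry such symbols and were not members.

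RNA was sequenced from murine erythroleukemia (MEL) cells of the DS19 clone, a line that is arrested as an erythroid progenitor and matures toward hemoglobin-making cells when dimethyl sulfoxide (DMSO) is added. Wild-type (WT) cells were set beside Abcb10-null cells, which lack a transporter of the inner mitochondrial membrane. Both genotypes were collected at day 0 without DMSO and at days 2 and 5 in 1.5% DMSO, with 5 libraries in each of the 6 groups. The null cells were 1 clone, made with lentiviral CRISPR/Cas9 aimed at exon 1 of Abcb10 and sorted for GFP, so clone and genotype cannot be told apart. Nothing in the labels beyond the words for biological replicate says how the 5 libraries of a group were grown, and the p-values measure the spread between these libraries.

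Most histone mRNAs of this kind are made in S phase, when DNA is copied, and are the only known animal mRNAs that end in a stem-loop and not in a poly(A) tail. The stem-loop-binding protein Slbp holds this hairpin during cleavage by the U7 small nuclear RNP, translation and decay, and the mRNAs are destroyed when DNA synthesis stops. Libraries were made from total RNA after removal of ribosomal and globin RNA, with no poly(A) selection, so mRNAs that end in the hairpin could be captured. Levels below are CPM, the counts assigned to a gene per 1000000 counts of the library, with library totals scaled by the trimmed mean of M-values (TMM). They are shares of the counted RNA. RNA per cell was not measured, so fewer cells of a kind and less RNA per cell cannot be told apart.

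Library totals ran from 9906783 to 20157768 counts with a median of 16492116.5. Abcb10 itself averaged 119, 567 and 1223 CPM in WT at days 0, 2 and 5 and 74.3, 202 and 212 CPM in the null cells, with no overlap between genotypes at any day. A transcript level does not show whether the cut site was edited. The labelled cell type was met by its markers, since 11 of 12 erythroid maturation genes were present, with sums from 2571 CPM at day 0 to 23790 CPM at day 5 in WT. Of markers of other cells, 9 myeloid genes summed to 3.58 to 18.1 CPM and 7 fibroblast genes to 0.667 to 22.9 CPM in any library. The highest library of any group held 1.66 CPM of Mpo, 0.464 of Elane, 0.519 of Itgam and 0.742 of Dcn, which are among the markers of those cells. These genes were picked from the lists. Most of the highest myeloid sum, 18.1 CPM, came from listed myeloid genes other than Mpo, Elane and Itgam. The fibroblast sum at day 0 was 14.7 to 22.9 CPM in WT and 12.55 to 15.9 CPM in the null cells, so nearly all of it came from listed genes other than Dcn. At days 2 and 5 it was 0.667 to 11.6 CPM. One library was singled out by its values. Replicate 2 of the null cells at day 2 summed to 22640 CPM over all members where the other 4 lay between 40930 and 55130. Its Alas2 level, an enzyme of heme synthesis, was 45.0 CPM where the others held 122 to 235. The check for outlying libraries described at the end did not flag it and flagged 2 values, both of WT at day 5 (replicates 2 and 5). WT replicate 2 at day 5 was also low over all members, at 9888 CPM against 14340 to 17730 in the others. Counts of members called in comparisons that use that null library are given with and without it. Class medians, H2B to H4 ratios, most single-gene changes and counts of members without overlap are given only with it.

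The hairpin that defines these mRNAs is shown first, because classes differ in it and because it was found in the annotated transcripts of 46 members. The 16 bases below were read from the annotated transcripts on GRCm38, written as DNA on the strand of the gene, with capitals at the stem positions (3 to 5 and 12 to 14) at which H4 hairpins depart from the others.
Hist1h1c, chr13:23739512-23739527, plus strand: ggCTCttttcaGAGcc
Hist1h2bb, chr13:23747203-23747218, plus strand: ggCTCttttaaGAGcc
Hist1h4c, chr13:23698089-23698104, minus strand: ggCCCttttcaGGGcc
Hist4h4, chr6:136803998-136804013, minus strand: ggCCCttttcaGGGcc
Hist1h4j, chr13:21735437-21735452, plus strand: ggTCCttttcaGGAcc
All 34 H1, H2A, H2B and H3 hairpins that were found carried the CTC and GAG stem, and none of the 12 H4 hairpins did. The first form was the commonest, with 3 of 4 H1, 10 of 11 H2A, 8 of 10 H2B and 5 of 9 H3 hairpins. Among H4 genes, 7 of 12 had the stem and loop of Hist1h4c, Hist4h4 among them, and 2, Hist1h4j and Hist1h4b, had the last form. The remaining 21 members had no hairpin in their annotated exons, 11 of them with only the coding part and stop codon annotated, and its absence there says nothing about the mRNA. Some annotated exons run far past the hairpin: 2445 of 2863 bases in Hist4h4, 1257 of 1630 in Hist2h4, 4884 of 7425 in Hist1h1d and 840 of 1560 in Hist1h1c. Counts per gene do not show where in the exon reads fell. For such genes, RNA that extends past the hairpin cannot be told apart from mRNA that ends there.

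Promoters differed by class as well, and 62 members had a RefSeq window (GRCm38.p6) from 250 bases before to 50 bases after the annotated start. The octamer ATTTGCAT, bound by Pou2f1, stood in 7 of 18 H2A and 6 of 16 H2B windows and in no H1, H3 or H4 window, against 1.97% of 27025 windows of all genes. The core of the H4 element, GGTCCG, bound by Hinfp, stood in 11 of 12 H4 windows against 9.44% of all genes with a window. The H1 box AAACACA stood in 5 of 6 H1 windows against 8.22%. CCAAT stood in every H1, H2A, H2B and H3 window and in 3 of 12 H4 windows, against 41.1%, and TATAAA in 4 of 6 H1, 11 of 18 H2A, 8 of 16 H2B, 4 of 10 H3 and 8 of 12 H4 windows, against 15.7%. Both strands were searched, and a match is a description of letters only. Windows of neighbouring genes can overlap, and the same octamer was counted for both genes in Hist1h2ae and Hist1h2bg. So it was in Hist1h2ah and Hist1h2bk and in Hist1h2aa and Hist1h2ba. The 140 bases before the start, in capitals at the class motif, are given for examples that carry it. Some members with large changes below do not: Hist1h1a had no H1 box, Hist1h4a had no GGTCCG and Hist2h4 had no window.
Hist1h2bb, chr13:23746594-23746733, plus strand, octamer: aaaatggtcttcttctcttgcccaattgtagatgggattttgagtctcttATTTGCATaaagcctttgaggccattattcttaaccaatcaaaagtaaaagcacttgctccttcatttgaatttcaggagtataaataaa
Hist1h1c, chr13:23738667-23738806, plus strand, H1 box: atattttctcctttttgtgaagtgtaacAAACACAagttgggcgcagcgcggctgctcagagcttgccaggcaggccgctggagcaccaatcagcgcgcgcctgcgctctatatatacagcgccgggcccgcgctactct
Hist1h4c, chr13:23698459-23698598, minus strand, H4 element: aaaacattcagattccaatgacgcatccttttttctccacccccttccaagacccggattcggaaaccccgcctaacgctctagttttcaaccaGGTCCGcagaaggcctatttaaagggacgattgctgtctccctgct
Hist4h4, chr6:136804432-136804571, minus strand, H4 element: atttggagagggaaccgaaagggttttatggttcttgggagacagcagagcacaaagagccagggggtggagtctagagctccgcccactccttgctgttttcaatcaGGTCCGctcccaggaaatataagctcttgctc

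Histone mRNA was abundant in every group. Members took 2.04 to 2.28% of all counts in WT at day 0, 2.07 to 2.83% at day 2 and 1.01 to 1.77% at day 5. In the null cells they took 1.22 to 1.88%, 2.51 to 5.15% and 1.78 to 3.03%. The null libraries lay below WT at day 0, and at days 2 and 5 all but replicate 2 of day 2 lay above every WT library of their day.

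By class, H4 held the largest summed level at day 0 in WT, with 6294 ± 445 CPM (SD, n = 5), followed by H2B with 5633 ± 374, H1 with 4207 ± 185, H3 with 3669 ± 266 and H2A with 2741 ± 219. In the null cells at day 0 the sums were 3875 ± 472 for H4, 4376 ± 639 for H2B, 3800 ± 541 for H1, 2463 ± 563 for H3 and 1803 ± 376 for H2A. At day 5, WT held 4164 ± 1020 CPM of H4 and 3465 ± 718 of H2B where the null cells held 8862 ± 2060 of H4 and 2582 ± 669 of H2B. At day 5 the null mean was thus above the WT mean for H4 and below it for H2B, as the plot of class sums by library shows. Class sums and their ratios are descriptions and carry no p-value.

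**Figure D1:**
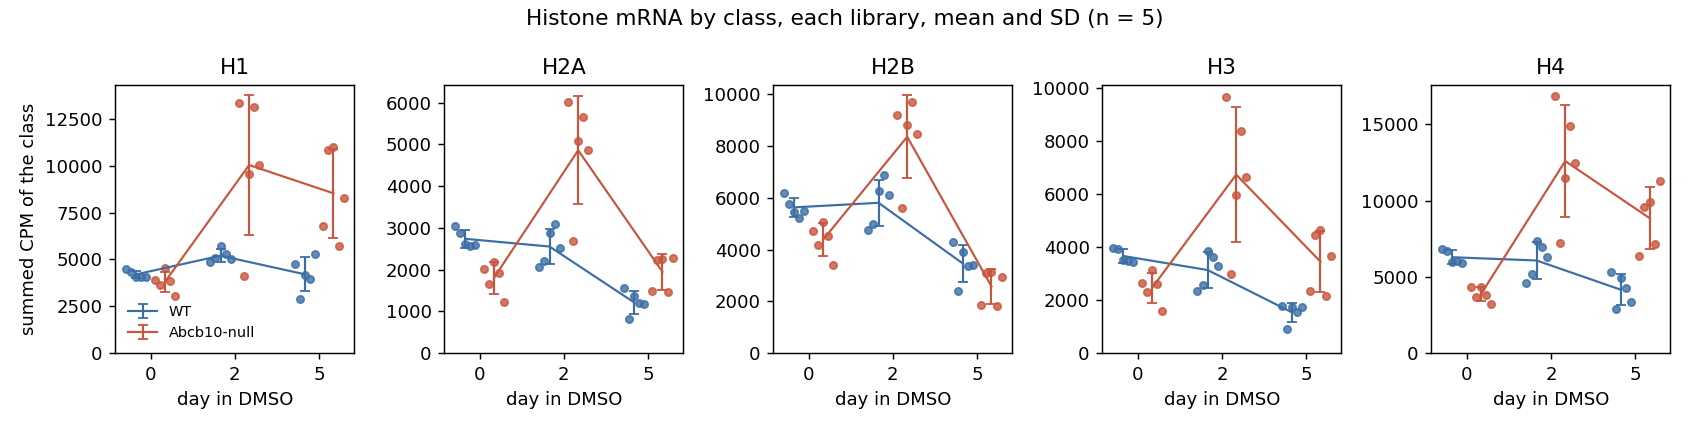
Summed CPM of the members of each histone class in each library, by genotype and day in DMSO; points are libraries, lines join the group means and bars are the SD (n = 5). At day 5 the null libraries hold 6357 to 11320 CPM of H4 against 2896 to 5325 in WT, while their H2B sums, 1834 to 3147 CPM, overlap those of WT, 2384 to 4298 CPM.

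Levels of different genes were compared per kilobase of annotated exon, so they depend on how far the annotation runs past the hairpin. On this scale the highest member of each class over all 30 libraries was Hist2h2bb (5360 CPM per kb) for H2B, Hist2h2ac (2060) for H2A, Hist1h4h (1880) for H4, Hist2h3b (1810) for H3 and Hist1h1a (1580) for H1. Hist2h2bb made up 37.3% ± 1.93 of the H2B counts in WT at day 0 (SD, n = 5). Its exon lies wholly under the gene Gm20628 on the opposite strand, and 59.3% of that exon is shared with a gene on the same strand. None of its 51-base words is unique among annotated transcripts. The strand setting of the counting is not given in the sources used here, so the level of Hist2h2bb is uncertain. Hist2h2ac made up 32.0% ± 0.88 of H2A in WT at day 0 and 46.2% ± 2.76 in the null cells at day 5.

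Many histone genes are near copies of each other, and reads could be split between them. Of the 67 members, 33 had more than 50% of their 51-base words found in no other annotated gene: all 6 H1, 4 of 18 H2A, 10 of 18 H2B, 4 of 12 H3 and 9 of 13 H4. The other 34 are uncertain as single genes. Hist2h3c1 had no count in any library. However, 100% of its exon is shared with Gm20634 on the same strand and none of its 51-base words is unique. Its lack of counts therefore does not show that it was silent. At the bottom of the range, the testis forms Hist1h2aa and Hist1h2ba stayed below 0.5 and 2.1 CPM. The testis linker histone Hist1h1t held 4.76 to 29.5 CPM.

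Counts were tested with edgeR's quasi-likelihood test, p-values were adjusted by Benjamini and Hochberg's method across every gene that passed the filter, and a gene was called at an adjusted p under 0.05. All adjusted p-values below come from that test. The number of members that passed the filter on low counts ranged from 60 to 64 by comparison. The median log2 fold change of all tested genes lay between -0.03 and 0.03 in every comparison. Members that did not pass are not counted.

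The first question was how the family behaved in WT cells as they matured. Between days 0 and 5, 50 of 60 tested members fell and 4 rose, where 34.7% of all genes were called lower and 36.5% higher. By class, 12 of 14 H2A, 14 of 16 H2B, 10 of 11 H3 and 11 of 13 H4 members fell, but only 3 of 6 H1 members, and the median of all members was -0.97. The sharpest falls were in H2A, where Hist1h2an fell by 2.63 (SE 0.18, adjusted p = 3.51e-08), Hist1h2ah fell by 2.23 (SE 0.155, adjusted p = 3.97e-08) and Hist1h2ae fell by 2.15 (SE 0.173, adjusted p = 1.53e-07) on the log2 scale.

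Hist1h2an held 153, 139, 131, 123 and 118 CPM in the WT libraries of day 0 and 29.01, 15.8, 23.6, 24.8 and 14.4 CPM at day 5, so no day 5 library came near day 0. Most of the fall came late. From day 0 to day 2, 10 of 61 members rose and 20 fell (31.5% and 30.7% of all genes), and from day 2 to day 5, 1 rose and 43 of 61 fell (17% and 16.4%). Fitting all 30 libraries together called 19 members from day 0 to day 2 in place of 30, but the share of all genes called in that fit is not given here.

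The 4 members that rose in WT by day 5 were Hist3h2a (log2 fold change 1.23), Hist1h1c (0.72), Hist2h2be (0.54) and Hist1h1e (0.53). Hist1h1c and Hist1h1e encode linker histone subtypes that are also found in cells that have stopped dividing. Hist1h1c held 1046, 986, 909, 891 and 918 CPM at day 0 and 1803, 1042, 1502, 1460 and 2009 CPM at day 5, with replicate 2 of day 5 at the edge of the day 0 range. Hist1h1a, another linker subtype, went the other way, from 964 to 1030 CPM at day 0 to 336 to 528 CPM at day 5 (log2 fold change -1.19, SE 0.117, adjusted p = 9.73e-07). Hist1h1b and Hist1h1t also fell, by 0.81 and 1.04, and Hist1h1d changed by -0.34 (adjusted p = 0.0663).

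The early steps held some opposite moves. By day 2 in WT, Hist2h2aa2 rose by 1.61 (adjusted p = 0.0113), Hist3h2ba by 1.11 (adjusted p = 3.23e-06) and Hist2h2be by 0.84 (adjusted p = 3.03e-05), while Hist1h2ae, Hist1h2an and Hist1h2ah fell by 0.89, 0.89 and 0.86. Hist2h2aa2 is a low gene whose day 2 libraries held 5.67, 6.62, 5.27, 29.1 and 4.76 CPM, so 1 library made most of its mean, and its exon lies wholly under genes of the opposite strand. From day 2 to day 5 its change was -1.97 (adjusted p = 0.0204), but -1.05 (adjusted p = 0.075) without replicate 4 of day 2 and -1.86 (adjusted p = 0.0562) without replicate 4 of day 5. Hist3h2ba fell by 1.88 (adjusted p = 1.05e-05) and Hist1h2an by 1.73 in that step, and Hist3h2a rose by 1.159 (adjusted p = 0.00156).

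The next question was what differed between the genotypes at each day. The 3 comparisons use different libraries from each other, but each shares its libraries with the time comparisons. At day 0, before DMSO, members were lower in the null cells: 41 of 62 were called lower and 1 higher, where 16.2% and 19.7% of all genes were. The median was -0.45. H2A (12 of 15), H3 (9 of 11) and H4 (10 of 13) carried most of the calls, with 9 of 17 H2B and 1 of 6 H1 members. When all 30 libraries were fitted together, with a spread shared over all days, 19 members were called lower and 0 higher. The share of all genes called in that fit is not given here, and the percentages above belong to the fit of day 0 alone.

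Hist1h4c showed this most clearly among H4 genes, with 1188, 1164, 1014, 981 and 961 CPM in WT and 613, 409, 549, 492 and 319 CPM in the null cells. The groups did not overlap (log2 fold change -1.161, SE 0.128, adjusted p = 1.19e-06). Hist1h4a changed as much (-1.157, SE 0.125, adjusted p = 9.06e-07), as did the H2A gene Hist1h2af (-1.146, SE 0.164, adjusted p = 2.61e-05). In all, 34 of 62 members had every null library below every WT library, a separation in that direction that 9.15% of all genes showed.

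Linker histones moved little at day 0. Hist1h1b was lower (-0.32, SE 0.0652, adjusted p = 0.000892), and the other 5 H1 genes lay between -0.04 and -0.19 and were not called. Without replicate 3 of the null cells, 4 H1 genes were called: Hist1h1a at -0.25 (adjusted p = 0.0254), Hist1h1c at -0.285 (adjusted p = 0.00835) and Hist1h1d at -0.22 (adjusted p = 0.0322) in addition to Hist1h1b. The highest genes of each class gave a like picture: Hist2h2ac -0.30, Hist1h2ak -0.48, Hist1h2ab -0.62 and Hist1h2ac -0.72 for H2A, Hist1h3e -0.57, Hist1h3f -0.65 and Hist1h3b -0.77 for H3, and Hist1h4d -0.75, Hist1h4h -0.56 and Hist4h4 -0.50 for H4, all called. Hist2h3b, the highest H3 gene, was at -0.31 (adjusted p = 0.0801), and at -0.42 (adjusted p = 0.0104) without replicate 3 of the null cells.

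The 1 member that was higher at day 0 was Hist2h2be, an H2B gene of the Hist2 cluster. It held 36.3, 38.6, 36.1, 32.7 and 32.3 CPM in WT and 49.3, 55.8, 62.8, 50.7 and 47.0 CPM in the null cells. No null library fell into the WT range (log2 fold change 0.59, SE 0.0853, adjusted p = 3.02e-05, and 0.0598 when all 30 libraries were fitted together). Other H2B genes of high level were lower, with Hist2h2bb at -0.58, Hist1h2bb at -0.64 and Hist1h2bg at -0.41, or not called, with Hist1h2bc at -0.09 (adjusted p = 0.323).

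By day 2 the sign had turned. In the null cells 40 of 64 members were higher and 0 lower, where 14.9% and 16.9% of all genes were called, with a median of 0.77. Beside the 0 lower in edgeR, 1 member was lower at an unadjusted p under 0.05 and 1 was called lower by DESeq2. The calls covered 5 of 6 H1, 8 of 16 H2A, 7 of 18 H2B, 9 of 11 H3 and 11 of 13 H4 members. Without replicate 2 of the null cells, which was singled out above, 44 members were higher and 1 was lower. The share of all genes called in that fit is not given here, so these counts are not set against a background.

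The largest rises at day 2 were in Hist1h3g, Hist4h4 and Hist2h4. Hist4h4, the H4 gene that stands alone on chromosome 6, held 614, 679, 779, 944 and 664 CPM in WT and 3109, 840, 2763, 3200 and 1881 CPM in the null cells, where replicate 2 lay inside the WT range and the other 4 were far above it. Its log2 fold change was 1.63 (SE 0.288, adjusted p = 0.00324). Hist1h3g rose by 1.75 (SE 0.324, adjusted p = 0.00378) and Hist2h4 by 1.603 (SE 0.372, adjusted p = 0.00827). Only 5 members had every null library above every WT library, near the 8.01% of all genes. That count includes replicate 2 and was not made without it, so it does not show how the other 4 null libraries separated from WT.

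Among linker histones at day 2, Hist1h1a was higher by 1.36 (SE 0.279, adjusted p = 0.0053), Hist1h1d by 1.01, Hist1h1t by 1.00, Hist1h1c by 0.80 and Hist1h1b by 0.63, and Hist1h1e was at 0.53 (adjusted p = 0.0797). Hist1h1c lost its call in 7 of 10 fits that left out 1 library, with adjusted p up to 0.078, and Hist1h1t in 3, without replicates 1 or 2 of WT or replicate 1 of the null cells, with adjusted p up to 0.0581. Hist1h1e was at 0.71 (adjusted p = 0.00213) without replicate 2 of the null cells. Without replicate 1 or 2 of WT, or replicate 1 of the null cells, 3 H1 members were called in place of 5, and without replicate 2 of WT or replicate 1 of the null cells 5 H2A members in place of 8.

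H2B was the class with the smallest rise at day 2. Its median was 0.44 against 1.11 for H3 and 0.97 for H4, and its summed level differed by 0.53 on the log2 scale (0.64 without replicate 2 of the null cells) where H4 differed by 1.05. Hist1h2bl (1.35), Hist1h2bn (1.13), Hist1h2bh (1.08) and Hist1h2bg (0.78) were called. The highest genes Hist2h2bb and Hist1h2bb were both at 0.37 and not called (adjusted p = 0.119 and 0.202), Hist1h2bc was at 0.08 and Hist2h2be at -0.79 (adjusted p = 0.0603). Without replicate 2 of the null cells Hist2h2bb was called, at 0.485 (adjusted p = 0.0226).

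At day 5 the classes parted. In the null cells 30 of 60 members were higher and 9 lower, where 19.8% and 17.8% of all genes were, with a median of 0.58. All 6 H1 members, 10 of 13 H4, 9 of 11 H3 and 4 of 14 H2A were higher, while H2B had 8 of 16 lower and 1 higher. Class medians were 0.99 for H1, 1.16 for H4, 1.17 for H3, 0.43 for H2A and -0.51 for H2B, and the plot of genotype differences by class shows that shift. In 18 of 60 members every null library lay above every WT library (13.5% of all genes), and in 1 below (10.4%).

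**Figure D2:**
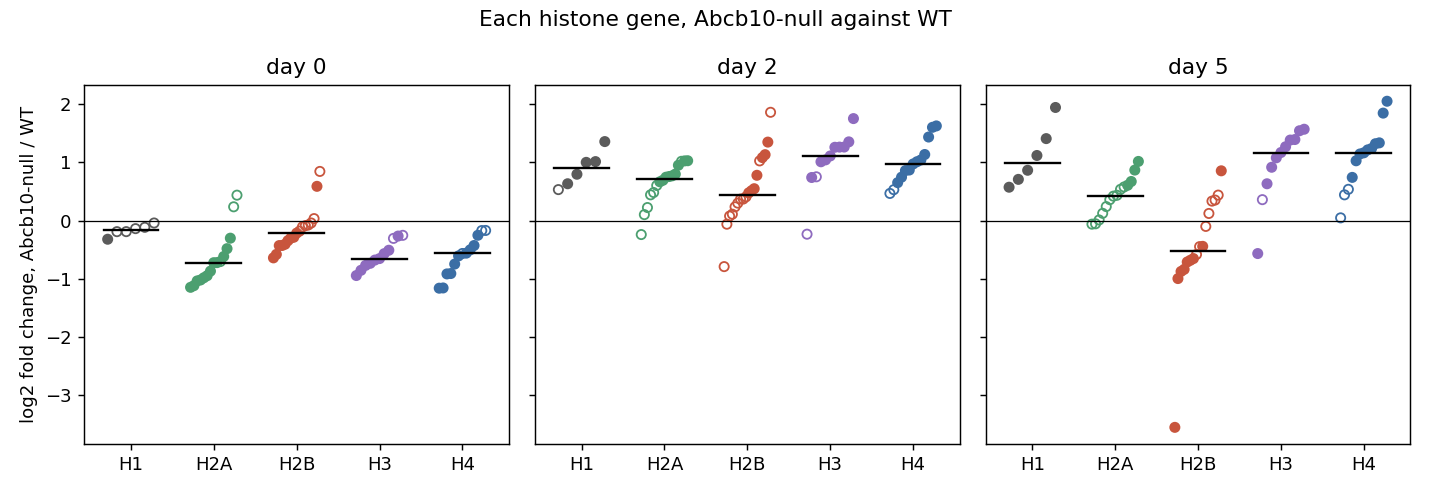
Log2 fold change of each tested member, Abcb10-null over WT, at days 0, 2 and 5 by histone class; each point is 1 gene, filled points were called at an adjusted p under 0.05 and bars mark the class median. At day 5 the H1, H3 and H4 medians are 0.99, 1.17 and 1.16 and the H2B median is -0.51.

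Linker histones and H4 gave the clearest rises at day 5. Hist1h1a held 528, 336, 485, 447 and 384 CPM in WT and 1101, 1895, 2099, 1256 and 2082 CPM in the null cells, so the lowest null library was above the highest WT library (log2 fold change 1.94, SE 0.2, adjusted p = 2.02e-05). Hist1h1t, which is known from testis and is low here, was higher by 1.41 (adjusted p = 0.000298), Hist1h1d by 1.12, Hist1h1e by 0.87, Hist1h1c by 0.71 and Hist1h1b by 0.57. The call of Hist1h1b was lost without any 1 of 5 libraries (replicates 2 and 4 of WT and 2, 3 and 5 of the null cells), with adjusted p up to 0.0886.

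Among H4 genes, Hist2h4 held 122, 69.8, 126, 110 and 144 CPM in WT and 292, 582, 762, 322 and 419 CPM in the null cells at day 5, again without overlap (log2 fold change 2.05, SE 0.262, adjusted p = 9.34e-05). Hist1h4k held 232, 130, 219, 189 and 200 CPM against 603, 754, 781, 519 and 850 CPM (1.85, SE 0.173, adjusted p = 1.03e-05), though only 29% of its 51-base words are unique. Hist4h4 was higher by 1.32, Hist1h4d by 1.15, Hist1h4h by 1.03 and Hist1h4c by 0.74. The 3 that were not called were Hist1h4i at 0.54, Hist1h4n at 0.44 and Hist1h4m at 0.05.

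For H3, Hist1h3f (1.57), Hist1h3a (1.54), Hist1h3g (1.39), Hist1h3e (1.38) and Hist2h3b (1.27) were higher at day 5. Hist2h3c2 was the only H3 gene called lower, at -0.57 (adjusted p = 0.039), with 26.7, 16.4, 21.8, 20.5 and 12.4 CPM in WT and 16.5, 12.7, 10.97, 12.8 and 13.5 CPM in the null cells, where the groups overlap. For H2A, Hist1h2ak (1.02), Hist2h2ac (0.87), Hist2h2ab (0.67) and Hist1h2af (0.61) were higher, while Hist1h2ab at 0.13 and Hist1h2ac at 0.42 were not called. All 4 called H2A genes have 50% or less of their 51-base words unique. Of the 3 tested H2A genes over 50%, 0 were called and the median was -0.055, so the direction of the H2A median at day 5 turned with that restriction. The number of H2A members called was 2 in place of 4 without replicate 2, 3 or 5 of the null cells, and Hist1h2ac was called, at 0.56 (adjusted p = 0.0263), without replicate 1 of WT.

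Of the 8 H2B members that were lower at day 5, 7 lie in Hist1 and 1 in Hist2. Hist2h2be, which had been higher at day 0, held 64.9, 47.2, 52.0, 47.9 and 43.7 CPM in WT and 28.2, 24.9, 25.7, 23.9 and 26.3 CPM in the null cells. The groups were well apart (log2 fold change -0.996, SE 0.125, adjusted p = 8.25e-05). Hist1h2bj was at -0.87 (SE 0.178, adjusted p = 0.00214), Hist1h2bb at -0.84 (adjusted p = 0.00641), Hist1h2bm at -0.71, Hist1h2bc at -0.68 (adjusted p = 0.0022), Hist1h2be at -0.65 and Hist1h2bg at -0.44 (adjusted p = 0.0348). Hist1h2bg lost its call without replicate 1 or 3 of WT or replicate 1 or 4 of the null cells, with adjusted p up to 0.0984.

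Hist1h2bb, whose promoter and hairpin are printed above, held 525, 265, 410, 366 and 357 CPM in WT and 165, 282, 251, 143 and 239 CPM in the null cells at day 5, and only WT replicate 2 reached into the null range. Hist2h2bb, the H2B gene with the most counts, was at -0.58 (adjusted p = 0.0641) and was called without replicate 2 of WT (-0.70, adjusted p = 0.0279) or replicate 3 of the null cells (-0.72, adjusted p = 0.043). Hist1h2bl was the 1 H2B gene that was higher (0.86, adjusted p = 0.00956). It held 108, 53.8, 92.5, 73.7 and 96.3 CPM in WT and 104, 188, 218, 108 and 152 CPM in the null cells, so the groups overlap, and 50% or less of its 51-base words are unique.

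Hist1h2bq had the largest fitted fall, -3.55 (SE 1.05, adjusted p = 0.0178), but its libraries did not agree within groups. It held 23.5, 0.609, 15.7, 0.868 and 0.322 CPM in WT at day 5, and 31.1, 2.19, 30.3, 2.03 and 1.12 CPM in WT at day 0, so its counts fell into high and low libraries in every group but null day 5. Only 2.7% of its 51-base words are unique. The call was lost without replicate 1 of WT at day 5 (-2.66, adjusted p = 0.0602). Its fitted value is therefore given as a description of these libraries.

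The parting of H2B from H4 was clearest as a ratio within each library, to which both classes contribute. At day 2 the null mean was above WT for H2B too (8358 against 5809 CPM). At day 5 it was above WT for H4 (8862 against 4164 CPM) and below it for H2B (2582 against 3465 CPM, with overlapping libraries). Summed H2B over summed H4 was 0.896, 0.963 and 0.841 in WT at days 0, 2 and 5, with library ranges of 0.860 to 0.930, 0.849 to 1.04 and 0.787 to 1.00. In the null cells it was 1.13, 0.684 and 0.291, with ranges of 1.05 to 1.19, 0.545 to 0.781 and 0.257 to 0.325. The genotypes did not overlap at any day, and the order was null above WT at day 0 and WT above null at days 2 and 5. With only the members that have more than 50% unique words, the ratios were 0.498, 0.464 and 0.421 in WT and 0.682, 0.321 and 0.137 in the null cells, with the same order.

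**Figure D3:**
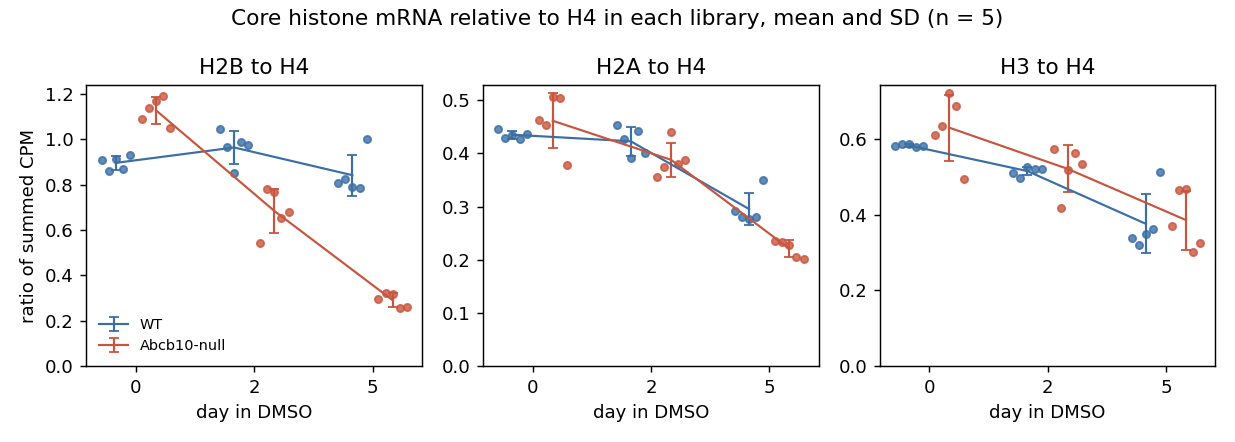
Ratio of summed CPM of H2B, H2A and H3 to H4 in each library, by genotype and day in DMSO; points are libraries, lines join the group means and bars are the SD (n = 5). The H2B to H4 ratio falls to 0.257 to 0.325 in the null libraries of day 5, below the 0.787 to 1.00 of WT.

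Other class ratios differed by day. At day 0, H1 to H4 was 0.669 ± 0.0192 in WT and 0.980 ± 0.0588 in the null cells (SD, n = 5), with no overlap, and at day 5 it was 1.04 ± 0.295 and 0.969 ± 0.188, which overlap. H3 to H4 was 0.376 ± 0.0778 in WT and 0.386 ± 0.0777 in the null cells at day 5 (SD, n = 5), which overlap. H2A to H4 at day 5 was 0.2955 ± 0.0307 and 0.221 ± 0.0162, where the highest null library (0.236) lay below the lowest WT library (0.276). H2B to H2A was 2.85 ± 0.0636 in WT and 1.31 ± 0.0691 in the null cells at day 5, so H2B was low beside its partner in the nucleosome too.

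Over time, the null cells rose before they fell. From day 0 to day 2, 51 of 63 members rose and 0 fell (23.1% and 20.1% of all genes), with a median of 1.35. There were also 0 lower in edgeR at an unadjusted p under 0.05 and in DESeq2. Without replicate 2 of day 2 the counts were 54 and 1, and the share of all genes in that fit is not given here. All 13 H4 members rose, as did 10 of 11 H3 and 5 of 6 H1. Hist2h4 held 181, 186, 170, 165 and 160 CPM at day 0 and 1497, 273, 957, 1640 and 663 CPM at day 2 (log2 fold change 2.57, SE 0.356, adjusted p = 9.04e-05). Hist4h4 rose by 2.52 (SE 0.278, adjusted p = 1.59e-05) and Hist1h3i by 1.91 (SE 0.295, adjusted p = 0.000207).

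From day 2 to day 5 in the null cells, 41 of 62 members fell and 0 rose (16.6% and 14.4% of all genes), also 0 at an unadjusted p under 0.05 in edgeR and 0 in DESeq2, with a median of -1.11. Without replicate 2 of day 2, 48 fell, and the share of all genes in that fit is not given here. With all libraries the fall was shared unevenly: 15 H2B and 13 H2A members fell, 8 of 11 H3, 4 of 13 H4 and 1 of 6 H1. Without replicate 2 of day 2 the counts were 7 for H4 and 3 for H1, and without replicate 1 of day 2 or replicates 1 or 4 of day 5 the H3 count was 5. Hist3h2ba fell by 2.21 (SE 0.208, adjusted p = 2.15e-05) and Hist1h2ae by 2.15 (SE 0.227, adjusted p = 3.79e-05), while Hist1h4c was at 0.15 and Hist1h1c at -0.17, neither called.

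Set against their own day 0, the null cells at day 5 held 26 members higher and 16 lower of 60 (33.9% and 33.3% of all genes), with a median of 0.24. The share of members higher was above that of all genes and the share lower was below it, and the calls divided by class: 12 of 13 H4, 5 of 6 H1, 6 of 11 H3 and 3 of 14 H2A members were higher, and 11 of 16 H2B and 5 of 14 H2A members were lower, with 0 H2B members higher, also at an unadjusted p under 0.05 in edgeR and in DESeq2. The H3 count was 3 without replicate 2 or 3 of day 5. The plot of changes from day 0 to day 5 by class sets this beside WT, where every class fell on its median.

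Hist1h4c led the rises from day 0 to day 5 in the null cells (log2 fold change 1.67, SE 0.188, adjusted p = 8.81e-07), from the day 0 values above to 1106, 1423, 1376, 1438 and 2238 CPM. Hist1h1c rose by 1.62 (SE 0.159, adjusted p = 1.88e-07) and Hist1h4k by 1.58 (SE 0.121, adjusted p = 1.07e-08). Hist1h2bm led the falls with a clear separation, from 287, 268, 330, 282 and 208 CPM to 49.8, 86.4, 83.8, 48.9 and 72.1 CPM (-2.002, SE 0.168, adjusted p = 3.11e-08). Hist1h2bj fell by 1.56 (SE 0.124, adjusted p = 1.69e-08), and the unsteady Hist1h2bq was fitted at -5.12.

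**Figure D4:**
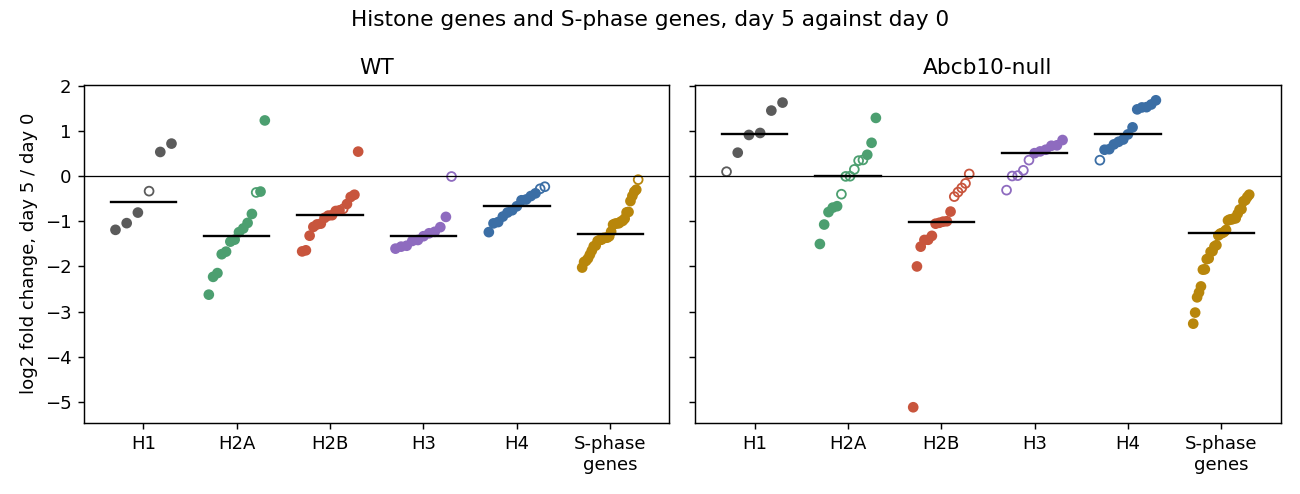
Log2 fold change of each tested member, by class, and of 30 S-phase genes from day 0 to day 5 in WT and in Abcb10-null cells; each point is 1 gene, filled points were called at an adjusted p under 0.05 and bars mark the median. In the null cells the medians are 0.93 for H1 and 0.92 for H4 against -1.02 for H2B and -1.27 for the S-phase genes.

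Whether the change over time itself differed between genotypes was tested as an interaction, with positive values where the null cells rose more or fell less. From day 0 to day 2, 52 of 64 members were positive and 1 negative (12% and 10.8% of all genes), with a median of 1.4. The largest were Hist1h4a (2.24, SE 0.297, adjusted p = 5.2e-05), Hist4h4 (2.18, SE 0.31, adjusted p = 0.00011) and Hist1h3i (2.15, SE 0.362, adjusted p = 0.000593). Without replicate 2 of the null cells at day 2 the counts were 53 and 1, and the share of all genes in that fit is not given here. The 1 negative member was Hist2h2be (-1.33, SE 0.328, adjusted p = 0.00742).

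Over the whole 5 days, 43 of 63 members were positive and 3 negative (16.8% and 14.7%), with a median of 1.16. All 6 H1, 12 of 15 H2A, 10 of 11 H3 and 12 of 13 H4 members were positive, against 3 of 18 H2B, and the 3 negative members were all H2B. The largest positive terms were in Hist1h4a (2.34, SE 0.292, adjusted p = 2.49e-06), Hist1h3f (2.24, SE 0.305, adjusted p = 7.36e-06) and Hist2h4 (2.24, SE 0.285, adjusted p = 3.14e-06). The negative ones were Hist2h2be (-1.57, SE 0.151, adjusted p = 7.59e-08), Hist1h2bc (-0.58, SE 0.161, adjusted p = 0.00828) and Hist1h2bq (-4.37, adjusted p = 0.048), the last of which lost its call in 13 of 20 fits that left out 1 library.

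From day 2 to day 5, 7 of 64 members were negative and 0 positive (2.94% and 1.77%; 0 positive at an unadjusted p under 0.05 in edgeR and 0 in DESeq2), and all 7 were H2B: Hist1h2bg (-1.26, SE 0.275, adjusted p = 0.0122), Hist1h2bb (-1.25, SE 0.33, adjusted p = 0.0324), Hist1h2be (-1.18), Hist1h2bj (-1.158), Hist1h2bk (-1.04), Hist1h2bc (-0.81) and Hist1h2br (-5.22), which held at most 5.14 CPM in any library. The count was 3 without replicate 3 of null day 2, replicate 1 of WT day 5 or replicate 1 of null day 5. It was 4 without replicate 4 or 5 of WT day 2, replicate 3 of WT day 5 or replicates 4 or 5 of null day 5, and 9 without replicate 2 of null day 2. The call of Hist1h2bb was lost in 10 of 20 such fits, with adjusted p up to 0.0787, and that of Hist1h2br in 6.

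Paired H2A and H2B genes set the classes side by side within 1 promoter region, but most of the H2A partners are uncertain as single genes. Of those tested in pairs at day 5, only Hist1h2ae (57.2%) and Hist1h2ac (86.1%) had mostly unique 51-base words. The others ran from 7.9% (Hist1h2ah) to 45.5% (Hist2h2ac). Exons of all these H2A genes also lie partly under genes of the opposite strand. In mouse, many H2A and H2B genes lie head to head, and 12 such pairs had starts within 500 bases of each other. At day 0 the null to WT difference of the H2B gene lay above that of its H2A partner in all 10 pairs with both genes tested, by 0.27 to 1.55 on the log2 scale, the upper end being the unsteady Hist1h2bq. At day 5 it lay below in 7 of 9 pairs, with a median of -0.58 and a range of -1.86 to 0.50. Both genes had mostly unique words in Hist1h2ae with Hist1h2bg (50.4%) and in Hist1h2ac with Hist1h2bc (69.6%). There the H2B value less the H2A value was 0.71 and 0.63 at day 0 and -0.39 and -1.10 at day 5.

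The widest pair at day 5 was Hist2h2ac and Hist2h2be, whose starts are 238 bases apart, with 0.87 for H2A and -0.996 for H2B. Hist2h2ac held 628, 334, 554, 472 and 457 CPM in WT and 664, 975, 1046, 739 and 1062 CPM in the null cells at day 5, against the Hist2h2be values given above, so neighbours moved apart without overlap. Only 45.5% of the words of Hist2h2ac are unique, so its level as a single gene is uncertain. Next came Hist1h2ag and Hist1h2bj, 269 bases apart (0.54, not called, and -0.87), and Hist1h2ac and Hist1h2bc, 250 bases apart (0.42, not called, and -0.68). In Hist1h2ai with Hist1h2bl and Hist1h2ad with Hist1h2bf the H2B gene lay above its partner. The difference within a pair was not itself tested.

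**Figure D5:**
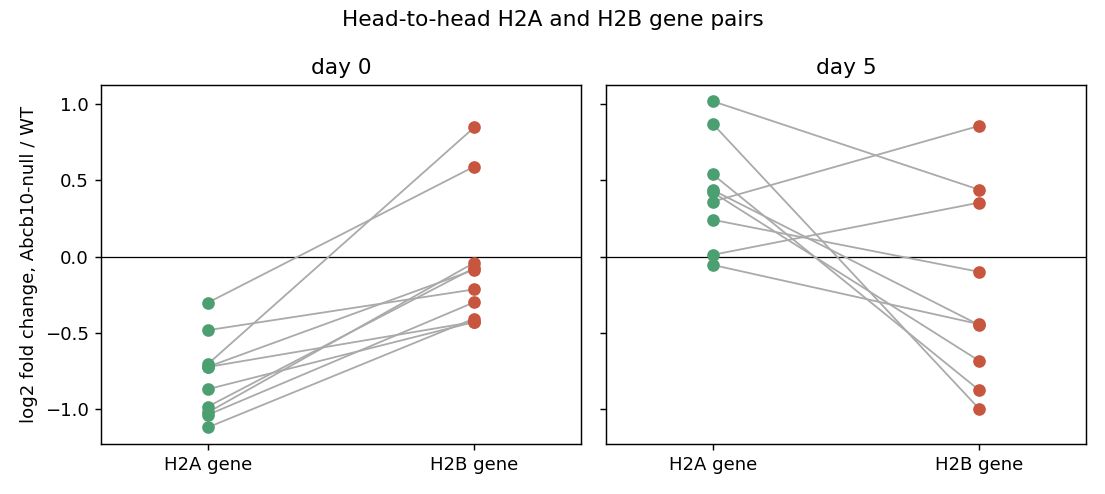
Log2 fold change, Abcb10-null over WT, of the H2A and H2B gene of each head-to-head pair, joined by a line, at days 0 and 5. At day 0 the H2B gene lies above its H2A partner in 10 of 10 pairs and at day 5 below it in 7 of 9. Most of the H2A genes shown share much of their sequence with other genes and are uncertain as single genes.

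Features that the symbol rule did not use divided H2B only loosely. Of H2B genes tested at day 5, the 5 with an octamer in the window had a median of -0.58 with 3 lower, and the 9 without had a median of 0.12 with 3 lower and 1 higher. The 10 with an annotated hairpin had a median of -0.44 and the 6 without -0.63. The 9 with more than 50% unique words had 6 lower and 0 higher, against 2 lower and 1 higher of the 7 others. Members with more than 1 annotated exon, all H2B, were Hist1h2bc (-0.68) and Hist1h2be (-0.65), which were lower, Hist1h2bp, which was at -0.10 (adjusted p = 0.753), and the copies Hist1h2bq and Hist1h2br described above.

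Genes that make, process and load histone mRNA and protein moved both ways, with list medians between -0.05 and 0.27 over the 3 days for transcription, formation of the 3′ end, decay and chaperones. Beside the calls in these lists, 19.7% of all genes were called higher and 16.2% lower at day 0. The shares were 14.9% and 16.9% at day 2 and 19.8% and 17.8% at day 5. Slbp averaged 378, 349 and 284 CPM in WT and 367, 432 and 321 CPM in the null cells at days 0, 2 and 5 and was not called between genotypes at any day. Npat, which brings the transcription machinery to histone loci in S phase, was not called either. Among 9 genes of histone gene transcription, Casp8ap2 was higher and Ccne1 lower at day 0 (0.24 and -0.18), Casp8ap2 was higher at day 2 (0.60) and Ccne1 lower at day 5 (-0.89, adjusted p = 0.000184). Casp8ap2 at day 2 lost its call in 6 of 10 fits that left out 1 library, and Ccne1 at day 0 without replicate 4 of the null cells (adjusted p = 0.0884).

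Of 10 tested genes for formation of the 3′ end, 2 were higher and 2 lower at day 0 (Cpsf2 0.41 and Zfp473 0.62, Lsm11 -0.32 and Sympk -0.35). This is near the shares of all genes, 19.7% and 16.2%. At day 2, 3 were higher and 1 lower (Cpsf2 0.42, Cpsf3 0.60 and Cstf2 0.62, Sympk -0.54), against 14.9% and 16.9% of all genes. At day 5, 4 were higher and 2 lower (Cpsf3 0.84, Lsm10 0.62, Cstf2 0.47 and Zfp473 0.82, Srrt -0.38 and Cpsf2 -0.28), against 19.8% and 17.8%. Cpsf3 is the nuclease that cuts histone pre-mRNA, and Lsm10 and Lsm11 belong to the U7 RNP, whose RNA Rnu7 had no count in any library. Of 6 tested genes of translation and decay, Eri1 (0.22), Mif4gd (0.27) and Xrn1 (0.30) were higher and Exosc10 (-0.27) and Upf1 (-0.26) lower at day 0. At day 2 Eri1 (0.52) and Lsm1 (0.36) were higher and Upf1 (-1.01) lower, and at day 5 Mif4gd (0.66) and Exosc10 (0.49) were higher. Calls lost in some fits that left out 1 library were those of Sympk, Lsm1 and Upf1 at day 2, of Upf1 at day 0 and of Cpsf2, Cstf2, Srrt and Zfp473 at day 5, with adjusted p up to 0.12.

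Among 14 histone chaperones, 5 were higher at day 5: Nasp (0.65, adjusted p = 0.00268), Supt16 (0.60), Asf1a (0.52), Rbbp7 (0.45) and Nap1l4 (0.31), and Chaf1a (-0.70) and Hat1 (-0.52) were lower. Of all genes, 19.8% were higher and 17.8% lower at day 5, and the shares for the other days are given above. The same 5 were higher at day 2, by 0.39 to 0.96, with Chaf1a (-0.62) and Tonsl (-1.79) lower. At day 0 Supt16 (0.57), Rbbp4 (0.32), Chaf1b (0.18) and Nap1l4 (0.16) were higher and Tonsl (-0.51), Ipo4 (-0.40) and Chaf1a (-0.36) lower. Calls lost in some fits that left out 1 library were those of Nap1l4 at all days, Chaf1b and Tonsl at day 0 and Nasp and Chaf1a at day 2, with adjusted p up to 0.131.

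Most replacement variants are made outside S phase and from polyadenylated mRNA. Of 9 tested, 5 were higher and 1 lower in the null cells at day 5, where 19.8% and 17.8% of all genes were. H3f3b, which encodes the variant H3.3, averaged 690 ± 53.5 CPM in WT and 2456 ± 370 in the null cells (SD, n = 5, log2 fold change 1.82, SE 0.126, adjusted p = 1.71e-06). H1f0, the linker variant that marks maturing cells, averaged 1386 ± 226 and 3429 ± 655 CPM (1.3, SE 0.159, adjusted p = 6.8e-05). H2afz (0.81), H2afy (0.73) and H2afx (0.66) were higher too, and Cenpa (-0.55), the variant of centromeres, was lower. At day 2 H3f3b (1.67), H1f0 (1.08) and H2afz (0.49) were higher and 0 were lower (1 at an unadjusted p under 0.05 in edgeR and 0 in DESeq2), and H2afz lost its call in 6 of 10 fits that left out 1 library. At day 0, 3 were higher and 1 lower, none by more than 0.37. Of all genes, 14.9% were higher and 16.9% lower at day 2, and 19.7% and 16.2% at day 0.

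Over the days in DMSO, genes of DNA replication did not rise with the histone genes of the null cells. The summed level of 30 S-phase genes was 7193 ± 189, 5460 ± 323 and 3120 ± 348 CPM in WT and 7577 ± 141, 5984 ± 820 and 2681 ± 510 CPM in the null cells at days 0, 2 and 5. From day 0 to day 5, 29 of the 30 fell and 0 rose in WT, and all 30 fell in the null cells, with medians of -1.28 and -1.27, and 0 rose at an unadjusted p under 0.05 in edgeR or in DESeq2. Of all genes, 34.7% fell and 36.5% rose in WT, and 33.3% and 33.9% in the null cells. Between genotypes at day 5, 1 was higher and 10 lower, where 19.8% and 17.8% of all genes were. The mean S-phase sum of the null cells was above that of WT at days 0 and 2 and below it at day 5. Libraries of the genotypes overlapped in this sum at each day. Uhrf1 averaged 58.1 ± 10 CPM in WT and 18.4 ± 6.87 in the null cells at day 5, and Pcna 219 ± 41.9 and 227 ± 35. The erythroid markers moved as well: of those tested, 0 were higher and 7 lower at day 2 and 0 higher and 10 lower at day 5, with 0 higher at an unadjusted p under 0.05 in edgeR and 0 in DESeq2. The shares of all genes were 14.9% higher and 16.9% lower at day 2 and 19.8% and 17.8% at day 5. Their sums at day 5 were 11730 to 23790 CPM in WT and 6112 to 7761 CPM in the null cells. Of the low markers of other cells, Csf1r and Lyz2 were higher and Prtn3 and Thy1 lower at day 0, Thy1 was higher at day 2 and Lyz2 at day 5. The part of S-phase genes and of erythroid markers in the histone differences was not tested.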

How the data were processed

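Total RNA of 30 MEL cell samples (6 groups of 5) was depleted of ribosomal and globin RNA and sequenced as stranded libraries. Per the labels and the study's methods, the authors trimmed reads, aligned them with STAR 2.6.1b to GRCm38 (Ensembl release 94) and deposited raw counts per gene from featureCounts 1.6.3. The settings for strand and for reads that match several genes are not given in the sources used here.

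Members and gene lists were chosen with earlier results of these data known. Members were matched by Ensembl ID to GENCODE M21 (GRCm38). Counts were tested with edgeR 4.0.16 in R 4.3.3: filterByExpr, TMM, and the quasi-likelihood test with adjustment by Benjamini and Hochberg across every gene that passed the filter, called at an adjusted p under 0.05. Each fit held only the groups compared, with no covariate. CPM levels used 1 TMM scaling over all libraries. Named genes were all H1 genes, the 4 highest of each other class, the 3 largest rises and falls of a comparison among called members with a mean of at least 1 CPM, called genes of the lists, Slbp, Abcb10 and members with unusual annotation. Others, such as the H2B genes that changed or members of pairs, were chosen after their values were seen.

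Alternatives were DESeq2 1.42.0, its size factors, other filters, 1 fit over 30 libraries, removal of 6140 globin, mitochondrial and small RNA genes, a replicate block and leaving out each library. Scripts were tested on simulated data. Library totals of 9906783 to 20157768 counts set the precision, and 37 of 54532 identifiers, with 0.0116% of counts, were not in the annotation. Replicates of a group differed by more than sampling noise (lowest chi-square per degree of freedom 6.42). Same-numbered libraries did not deviate together: r ran from -0.339 to 0.496 over 75 pairs, 10 of them over 0.1, so the numbers were not taken to pair samples. Promoters were RefSeq windows on GRCm38.p6.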

Additional observations from a re-analysis of the deposited data

Results flagged for a closer look

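The change over time differed between WT and Abcb10-null cells, by edgeR's interaction test, for 53 members from day 0 to day 2, for 46 from day 0 to day 5 and for 7 from day 2 to day 5. The first set had 52 members positive, the last had 7 negative, and all of those 7 were H2B genes. Of all genes, 12% were called positive and 10.8% negative from day 0 to day 2. The shares were 16.8% and 14.7% from day 0 to day 5 and 1.77% and 2.94% from day 2 to day 5.

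Of 42 groups of 5 libraries examined for a library far from the others, 2 had one, and chance gives about 1 in 20. The summed H3 level of WT replicate 2 at day 5 was 923.7 CPM, where the other 4 lay between 1540 and 1800. The H2B to H4 ratio of WT replicate 5 at day 5 was 1.001, where the other 4 lay between 0.787 and 0.823. Without WT replicate 2, the H3 difference of null over WT was 1.02 in place of 1.16 on the log2 scale.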

How the results depend on the processing

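No call and no summed class level changed direction under the alternatives run. Among class medians, restriction to members over 50% unique turned H2A at day 5 between genotypes from 0.428 (14 genes) to -0.055 (3 genes) and H3 in the interaction from day 2 to day 5 from -0.156 to 0.1, with 0 H3 genes called in either. Fitting all 30 libraries together called 19 members at day 0 in place of 42, and 19 in WT from day 0 to day 2 in place of 30. Testing all genes with at least 1 count called 11 members in the interaction from day 2 to day 5 in place of 7, and leaving out 1 library gave 3 to 9. Shares of all genes called in these alternative fits are not given here, so the counts are not set against a background. With only members over 50% unique, the log2 ratio of summed H2A was -0.852 at day 0 and 0.287 at day 5 (main values -0.604 and 0.675), and the H2B to H4 ratios were 0.498, 0.464 and 0.421 in WT and 0.682, 0.321 and 0.137 in the null cells. The cause was not tested. For single genes, 62 values lost and 10 gained their call over the settings, and 162 and 9 over fits that left out 1 library.

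With the replicate number as a block, which the pairing check gives no ground for, members called were 42, 42 and 33 between genotypes at days 0, 2 and 5, 25, 46 and 55 in WT (day 0 to 2, 2 to 5, 0 to 5), 51, 36 and 44 in the null cells and 52, 46 and 6 in the interactions (0 to 2, 0 to 5, 2 to 5). The share of all genes called with the block is not given here. Alternatives that test more genes moved the median of all genes by over 0.1, up to 1.53 for null day 5 against day 0 with all genes of at least 1 count. Counts near 0 limit Hist1h2br, Hist1h2ba and Hist1h2aa.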
